A study of Mus musculus with 18 samples.

Results

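The amino acid transporter genes are those of the solute carrier families Slc1a, Slc3a, Slc6a, Slc7a, Slc36a and Slc38a, whose proteins move amino acids and, for some Slc6a members, related small molecules such as creatine and taurine across membranes. They were chosen by name, as every row of the gene table whose symbol starts with 1 of these 6 family names followed by a digit, apart from Slc7a12 and the serotonin transporter gene Slc6a4. This gave 59 of 32675 genes, 3 of them opposite-strand transcripts named after a transporter gene (Slc36a3os, Slc6a19os and Slc7a6os). The levels were measured by bulk RNA sequencing of poly(A) RNA from the right kidneys of 18 male C57BL/6 mice, 6 in each of 3 groups that entered the experiment at 6 weeks of age. Ctrl mice were handled and not defeated. StressPbs mice (PBS) went through chronic social defeat stress (CSDS), in which a larger CD-1 resident attacked them for 10 min per day over 14 days, and received phosphate-buffered saline. StressFlx mice (FLX) went through the same defeat and received fluoxetine, a selective serotonin reuptake inhibitor, at 10 mg per kg per day by intraperitoneal injection. No unstressed group received fluoxetine, and the methods do not describe an injection of the Ctrl mice, so that defeat and injection cannot be told apart in PBS versus Ctrl.

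The proximal tubule of the kidney takes back nearly all amino acids that the glomerulus filters. Carriers in the apical membrane, which faces the urine, bring amino acids into the tubule cell, most of them together with sodium, and exchangers in the basolateral membrane pass them on to the blood. Several carriers work only as a pair, in which a heavy chain (Slc3a1 or Slc3a2) carries a light chain of the Slc7 family to the membrane. Loss of SLC3A1 or SLC7A9 in humans causes cystinuria, loss of SLC6A19 causes Hartnup disorder and loss of SLC7A7 causes lysinuric protein intolerance. Carriers of the Slc38 family take up glutamine and small neutral amino acids, and the kidney uses glutamine to make ammonia.

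Levels are given in FPKM (fragments per kilobase of transcript and unit of sequencing depth), which accounts for transcript length, and groups were compared on the estimated counts with edgeR's quasi-likelihood test after TMM scaling. A gene was called at a Benjamini-Hochberg adjusted p under 0.05 over the 20251 genes tested. The study deleted 1 PBS mouse for excessive inflammatory gene expression without naming it in the text. PBS replicate 6 was taken as that mouse, since its summed level of 5 neutrophil genes was 64.6 FPKM against 6.74 to 25.4 in the other PBS mice and its summed level of the injured tubule genes Lcn2 and Havcr1 was 59.0 FPKM against 1.33 to 6.07. Groups therefore held 6 Ctrl, 5 PBS and 6 FLX mice, and values over all 6 PBS mice are given where they end or add a call described here. Total counts were between 72149987 and 79061296 in 14 of the 18 mice and between 48928823 and 52073640 in FLX replicates 3 to 6. With limma on log2(FPKM + 0.1), the median log2 fold change over all genes was 0.063 in FLX versus Ctrl and 0.0756 in FLX versus PBS. With TMM scaling of the counts these medians were -0.00917 and -0.00267. FPKM levels, group overlaps and permutation p-values that involve FLX mice carry this offset. The proximal tubule markers were present in every mouse, with summed levels of 13 genes of 2944 to 3337 FPKM in Ctrl, 3034 to 3607 in PBS and 3064 to 3513 in FLX mice.

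Of the 59 genes, 47 passed the filter on low counts and were tested. The other 12 never exceeded 0.162 FPKM or 31 counts in any mouse, among them the noradrenaline and dopamine carriers Slc6a2 and Slc6a3. The mean Ctrl level was above 1 FPKM for 26 genes and above 10 FPKM for 16. The members' summed level was 1017 to 1144 FPKM in Ctrl, 936 to 1120.5 in PBS and 949 to 1218 in FLX mice, so that the groups overlapped. Slc7a13, Slc3a1 and Slc6a18 alone made up 56.3% to 63.8% of this sum in Ctrl mice, 51.7% to 61.9% in PBS mice and 55.9% to 65.8% in FLX mice. The 10 genes of apical reabsorption together made up 74.2% to 78.3% in Ctrl mice.

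**Figure D1:**
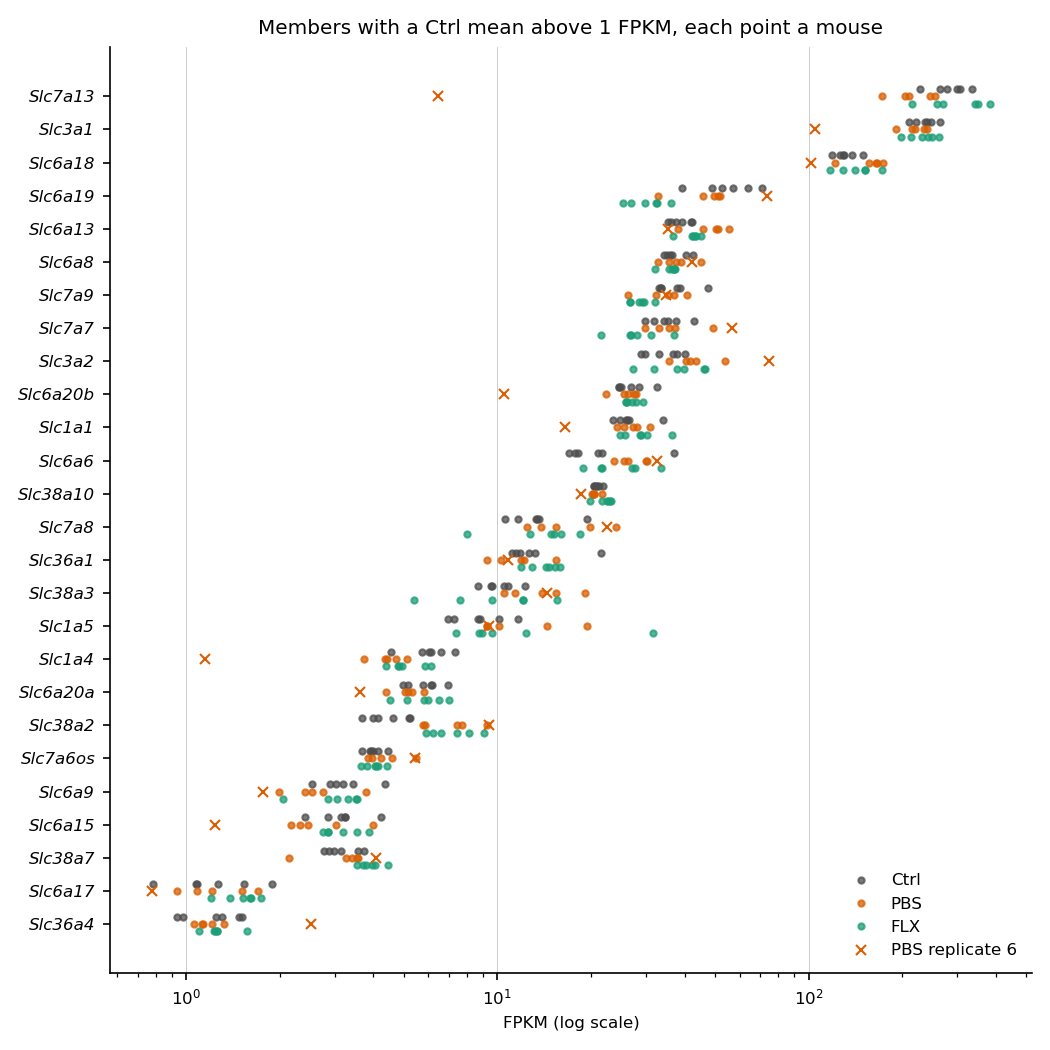
FPKM of the 26 members with a Ctrl mean above 1 FPKM on a log axis, ordered by Ctrl mean, with each point a mouse of the Ctrl, PBS or FLX group and each cross PBS replicate 6. Slc7a13, Slc3a1 and Slc6a18 lie above 100 FPKM in the 17 other mice, most genes overlap between groups, and PBS replicate 6 lies far to the left for Slc7a13 (6.44 FPKM).

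In PBS versus Ctrl, 1 of the 47 tested members was higher and 0 were lower (2.13% and 0%, against 2.14% higher and 1.67% lower among all genes tested). At an unadjusted p under 0.05, edgeR gave 9 higher and 3 lower of the 47 members, against 9.18% and 8.76% of all genes. The share of members was thus above that of all genes among the higher and below it among the lower. DESeq2 called 2 higher and 1 lower of the 47 at its adjusted p, against 7.91% of all genes in either direction. In FLX versus PBS, 0 members were higher and 1 was lower (0% and 2.13%, against 0.306% and 0.42% of all genes). At an unadjusted p under 0.05, edgeR gave 1 higher and 6 lower of the 47, against 5.76% and 5.38% of all genes. The share of members was here below that of all genes among the higher and above it among the lower. DESeq2 called 0 higher and 1 lower, against 3.06% of all genes in either direction. In FLX versus Ctrl, 1 member was higher and 3 were lower (2.13% and 6.38%, against 2.08% and 1.59% of all genes). DESeq2 called the same numbers (9.91% of all genes in either direction). At an unadjusted p under 0.05, edgeR gave 2 higher and 5 lower of the 47 members, against 10.2% of all genes in each direction. The median log2 fold change over the tested members was 0.03 in PBS versus Ctrl, -0.06 in FLX versus PBS and -0.02 in FLX versus Ctrl, against -0.01, 0.00 and -0.01 over all genes tested. FLX versus PBS and PBS versus Ctrl share the PBS mice, and PBS versus Ctrl and FLX versus Ctrl share the Ctrl mice, so that the comparisons are not independent of each other.

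With the threshold of the study, an unadjusted p under 0.05 and a log2 fold change over 1 in either direction, 2 members passed in PBS versus Ctrl (Slc36a2 and Slc38a11, against 3.28% of all genes), 0 in FLX versus PBS (1.9% of all genes) and 1 in FLX versus Ctrl (Slc38a11, against 2.24% of all genes). The highest Slc38a11 level in any mouse was 0.172 FPKM. Without Ctrl replicate 3, 3 of 46 tested members were called in PBS versus Ctrl (Slc38a2, Slc1a4 and Slc6a6), against 8.27% of all genes. In FLX versus Ctrl 5 of 46 were then called, against 15.4% of all genes, Slc38a11 being added (adjusted p = 0.0434), and FLX versus PBS kept 1 call, Slc6a19, against 1.24% of all genes. Of the 47 tested members, the groups did not overlap for 1 in PBS versus Ctrl, 0 in FLX versus PBS and 4 in FLX versus Ctrl. Among all genes tested it was 3.52%, 2.92% and 3.4%. The share of members was thus below that of all genes in the first 2 comparisons and above it in FLX versus Ctrl. The 4 called members were Slc38a2, Slc6a19, Slc7a9 and Slc38a6. They are described in full below with the bases before their RefSeq transcription starts, and the remaining members follow by role.

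**Figure D2:**
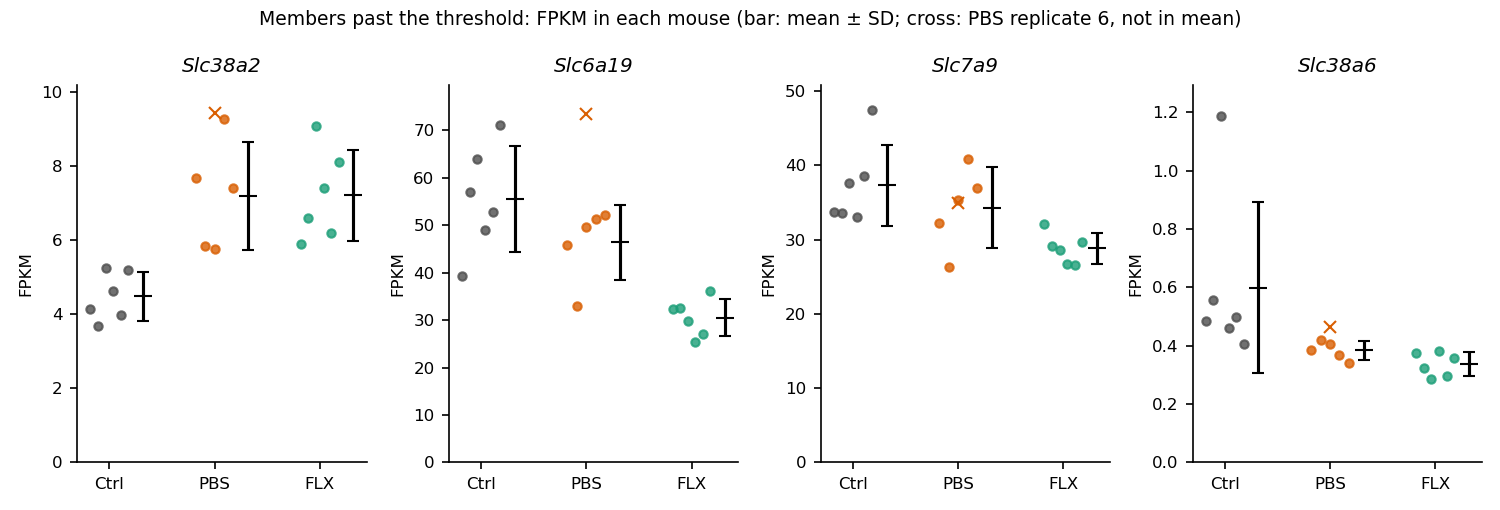
FPKM of Slc38a2, Slc6a19, Slc7a9 and Slc38a6 in each Ctrl (n = 6), PBS (n = 5) and FLX (n = 6) mouse, with the mean and SD as a bar and PBS replicate 6 as a cross outside the mean. All PBS and FLX mice lie above all Ctrl mice for Slc38a2, and all FLX mice lie below all Ctrl mice for Slc6a19, Slc7a9 and Slc38a6.

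Slc38a2 (ENSMUSG00000022462, chromosome 15, 96687392 to 96699730, minus strand, GRCm38) encodes SNAT2, a sodium-coupled carrier of small neutral amino acids that many cell types raise when amino acids are scarce or the medium is hypertonic. Its Ctrl levels were 3.68 to 5.26 FPKM with a median of 4.39. The 5 PBS mice had 7.68, 5.84, 5.77, 9.27 and 7.41 FPKM. FLX mice had 5.90 to 9.09 FPKM with a median of 7.01. Every defeated mouse, with or without fluoxetine, was thus above the highest Ctrl mouse. PBS replicate 6, at 9.44 FPKM, was the highest of all 18 mice. The gene rose from 4.49 ± 0.653 FPKM (SD, n = 6) in Ctrl to 7.19 ± 1.45 (SD, n = 5) in PBS, a log2 fold change of 0.70 (SE 0.14, adjusted p = 0.00942, edgeR). The exact two-sided permutation test on log2(FPKM + 0.1) gave p = 0.00216, the smallest it can give, in PBS versus Ctrl. FLX versus Ctrl gave a log2 fold change of 0.60 (SE 0.14, adjusted p = 0.0209). FLX and PBS mice covered the same range, with a log2 fold change of -0.09 (SE 0.14, adjusted p = 0.884). The PBS versus Ctrl call held in each of the 30 alternatives tried, with an adjusted p of at most 0.0305. The FLX versus Ctrl call was lost without Ctrl replicate 1 (adjusted p = 0.0510), Ctrl replicate 2 (0.0597) or Ctrl replicate 5 (0.0558) and with FLX replicates 1 and 2 only (0.448).

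The 5 neutrophil genes summed to 1.03 to 3.06 FPKM in Ctrl (2 of the 5 at 0 in every Ctrl mouse), 6.74 to 25.4 in PBS and 0.166 to 4.95 in FLX mice, so that the sum was higher in each of the 5 PBS mice than in any Ctrl or FLX mouse. Their part in the Slc38a2 difference was not tested. The 3 brown fat genes Ucp1, Cidea and Elovl3 summed to 0.116 to 32.3 FPKM in Ctrl, 3.17 to 412.7 in PBS and 0.913 to 188.7 in FLX mice. Without the mouse highest in fat genes of each group, an alternative chosen after seeing the data, PBS versus Ctrl gave 0.75 for Slc38a2 on the log2 scale (adjusted p = 0.0159). In whole tissue, a change in the share of a cell type and a change in RNA per cell cannot be told apart.

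The bases before the start of Slc38a2 are shown because it is the only member called in PBS versus Ctrl. They are the 250 bases before the RefSeq start (chr15:96699729-96699978, minus strand, GRCm38.p6, 5′ to 3′), with the GC box GGGCGG in capitals, which stands here on the opposite strand.
Slc38a2: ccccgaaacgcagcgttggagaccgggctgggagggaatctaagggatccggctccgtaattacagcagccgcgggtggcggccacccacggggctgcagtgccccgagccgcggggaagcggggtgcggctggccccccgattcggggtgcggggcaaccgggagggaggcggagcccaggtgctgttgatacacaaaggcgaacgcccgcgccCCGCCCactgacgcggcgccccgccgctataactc
The match began 35 bases before the start, in a window rich in G and C. The GC box occurs on either strand in 32.7% of all 32851 promoter windows of this length. The amino acid response core TGATGNAA, which occurs in 3.45% of all windows, had no match in these 250 bases. Bases after the start were not searched, so that this says nothing about matches elsewhere in the gene.

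Slc6a19 (ENSMUSG00000021565, chromosome 13, 73679745 to 73704865, minus strand) encodes B0AT1, the main apical carrier of neutral amino acids in the proximal tubule. It was the fourth member by Ctrl level, at 39.2 to 71.0 FPKM with a median of 54.9. The 5 PBS mice had 45.9, 32.9, 49.6, 51.3 and 52.0 FPKM. FLX mice had 25.4 to 36.1 FPKM with a median of 31.1. Every FLX mouse was below every Ctrl mouse, and 4 of 5 PBS mice were above every FLX mouse, the exception being PBS replicate 2. The mean fell from 55.5 ± 11.2 FPKM (SD, n = 6) in Ctrl to 30.5 ± 3.94 (SD, n = 6) in FLX mice. Its log2 fold change was -0.94 (SE 0.14, adjusted p = 0.00159, edgeR), with an exact permutation p of 0.00216. In FLX versus PBS it fell by 0.69 on the log2 scale (SE 0.14, adjusted p = 0.0315), from 46.3 ± 7.87 FPKM (SD, n = 5), with an exact permutation p of 0.00433. PBS versus Ctrl gave -0.25 (SE 0.14, adjusted p = 0.390), and the groups overlapped.

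The FLX versus PBS call of Slc6a19 was close to the threshold. It was lost without FLX replicate 1, 3, 4 or 5 (adjusted p = 0.0532, 0.0581, 0.0538 and 0.0638) and without PBS replicate 1, 3, 4 or 5 (0.0699, 0.0583, 0.104 and 0.0514), while the log2 fold change stayed between -0.79 and -0.63. It was also lost with limma on log2(FPKM + 0.1) (-0.59, adjusted p = 0.0520) and with pseudocounts of 1 and 0.01 (0.0559 and 0.0523), with the replicate number as a block (0.0570), without the mouse highest in fat genes of each group (0.0852) and with FLX replicates 1 and 2 only (0.655). With those 2 FLX mice alone the FLX versus Ctrl call was lost as well (-0.81, adjusted p = 0.184). PBS replicate 6, at 73.4 FPKM, had the highest Slc6a19 level of all mice, and with it FLX versus PBS gave -0.81 (adjusted p = 0.0275). The deeper FLX libraries, replicates 1 and 2, had 32.3 and 32.5 FPKM, against 25.4 to 36.1 over all FLX mice. The opposite-strand transcript Slc6a19os overlaps this gene but stayed at 0 to 0.360 FPKM in the 17 mice, and no source used here says whether the counting used strand.

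No motif searched occurred in the 250 bases before the RefSeq start of Slc6a19 (chr13:73692637-73692886, minus strand), a start that lies inside the longer gene model of the table. The sequence is shown in lower case because it holds none of the 6 motifs, in contrast to the windows of the other called members.
Slc6a19: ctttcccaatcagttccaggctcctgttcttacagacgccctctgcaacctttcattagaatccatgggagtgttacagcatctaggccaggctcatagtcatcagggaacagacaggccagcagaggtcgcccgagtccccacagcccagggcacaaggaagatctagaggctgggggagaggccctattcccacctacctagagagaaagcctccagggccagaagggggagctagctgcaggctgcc
The absence of these letters says nothing about the factors that bind there.

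Slc7a9 (ENSMUSG00000030492, chromosome 7, 35448796 to 35466036, plus strand) encodes the light chain that pairs with Slc3a1 to take up cystine and basic amino acids. Ctrl mice had 33.0 to 47.4 FPKM with a median of 35.7. PBS mice had 32.3, 26.2, 35.3, 40.8 and 37.0 FPKM. FLX mice had 26.6 to 32.1 FPKM with a median of 28.8, all below the lowest Ctrl mouse and all inside the range of the PBS mice. From 37.3 ± 5.45 FPKM (SD, n = 6) in Ctrl the mean fell to 28.8 ± 2.03 (SD, n = 6) in FLX mice, which edgeR fitted as -0.46 on the log2 scale (SE 0.11, adjusted p = 0.0311), with an exact permutation p of 0.00216. FLX versus PBS gave -0.34 (SE 0.12, adjusted p = 0.207) and PBS versus Ctrl -0.11 (SE 0.12, adjusted p = 0.674).

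The FLX versus Ctrl call of Slc7a9 was lost without Ctrl replicate 2, 5 or 6 (adjusted p = 0.0519, 0.0704 and 0.0639), without FLX replicate 4, 5 or 6 (0.0625, 0.0741 and 0.0555), with the replicate number as a block (0.0837), with FLX replicates 1 and 2 only (0.591) and without the mouse highest in fat genes of each group (0.137). Its partner Slc3a1 did not show the same difference. The level of Slc7a9 relative to Slc3a1 in the same mouse was 0.136 to 0.200 in Ctrl, 0.119 to 0.194 in PBS and 0.113 to 0.137 in FLX mice. The lowest ratios were thus in FLX mice, and the Ctrl and FLX ranges touched.

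The window of Slc7a9 (chr7:35448842-35449091, plus strand, before the more upstream of 2 RefSeq starts) holds a match to the HNF1 motif (TTAAT, any base, ATTA), the site of hepatocyte nuclear factors of the liver and proximal tubule, shown in capitals.
Slc7a9: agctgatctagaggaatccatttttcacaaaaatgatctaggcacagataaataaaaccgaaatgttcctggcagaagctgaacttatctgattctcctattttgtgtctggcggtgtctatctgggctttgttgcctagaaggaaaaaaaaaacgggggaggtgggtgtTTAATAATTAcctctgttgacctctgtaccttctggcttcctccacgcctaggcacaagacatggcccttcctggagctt
The match began 80 bases before this RefSeq start. The whole window lies inside the longer gene model given above, after its first base. Of all promoter windows, 0.387% hold this motif on either strand. Among the 44 members with a promoter window in RefSeq, it was found in 3, Slc7a9, the basolateral exchanger gene Slc7a8 and the untested Slc7a15.

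Slc38a6 (ENSMUSG00000044712, chromosome 12, 73286779 to 73354049, plus strand) is a little studied member of the Slc38 family, and its level was low. Ctrl mice had 0.408 to 1.19 FPKM with a median of 0.491. PBS mice had 0.386, 0.421, 0.407, 0.368 and 0.340 FPKM. FLX mice had 0.285 to 0.380 FPKM with a median of 0.341. Ctrl replicate 3 alone, at 1.19 FPKM, was far above the other Ctrl mice (0.408 to 0.557), but all FLX mice were still below all Ctrl mice. The log2 fold change in FLX versus Ctrl was -0.90 (SE 0.20, adjusted p = 0.0230, edgeR), with an exact permutation p of 0.00216. Without Ctrl replicate 3 the log2 fold change was -0.61 (adjusted p = 0.00635). The call was lost in 6 of the 30 alternatives. These were without FLX replicate 5 (adjusted p = 0.0574), with the replicate number as a block (0.0690), with FLX replicates 1 and 2 only (0.467) and with limma on the FPKM scale, which gave -0.61 (0.0613), -0.24 (0.0815) and -0.72 (0.0617) with pseudocounts of 0.1, 1 and 0.01. PBS versus Ctrl gave -0.62 (SE 0.21, adjusted p = 0.123) and FLX versus PBS -0.28 (SE 0.21, adjusted p = 0.714).

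The 250 bases before the RefSeq start of Slc38a6 (chr12:73286598-73286847, plus strand) hold the full cAMP response element TGACGTCA, shown in capitals. The last of these bases lie inside the gene model given above.
Slc38a6: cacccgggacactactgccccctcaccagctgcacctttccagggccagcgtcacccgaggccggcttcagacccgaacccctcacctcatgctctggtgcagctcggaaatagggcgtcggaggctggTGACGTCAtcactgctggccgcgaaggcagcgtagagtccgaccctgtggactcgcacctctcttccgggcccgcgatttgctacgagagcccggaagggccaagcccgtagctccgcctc
The match began 121 bases before the start. This palindrome occurs in 1.55% of all promoter windows and in no other member's window.

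The remaining apical carriers overlapped between groups. Slc7a13, a light chain of Slc3a1 in the straight part of the mouse proximal tubule that carries acidic amino acids and cystine, was the most abundant member. Its levels were 227 to 334 FPKM in Ctrl, 172 to 254 in PBS and 215 to 383 in FLX mice, and the groups overlapped. PBS versus Ctrl gave a log2 fold change of -0.38 (SE 0.15, adjusted p = 0.164), FLX versus PBS 0.39 (SE 0.15, adjusted p = 0.280) and FLX versus Ctrl 0.01 (SE 0.14, adjusted p = 0.986). The lower mean in PBS mice, 217 ± 33.1 FPKM (SD, n = 5) against 285 ± 37.2 in Ctrl (SD, n = 6) and 303 ± 64.5 in FLX (SD, n = 6), thus did not pass the adjustment. Slc3a1, the heavy chain, had means of 236 ± 19.2 FPKM in the 6 Ctrl mice, 220 ± 19.3 in the 5 PBS mice and 233 ± 23.3 in the 6 FLX mice (SD), with log2 fold changes between -0.11 and -0.01 in the 3 comparisons. The level of Slc7a13 relative to Slc3a1 was 0.960 to 1.60 in Ctrl, 0.874 to 1.15 in PBS and 1.08 to 1.46 in FLX mice.

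Slc6a18, an apical carrier of glycine and other neutral amino acids that lies next to Slc6a19 on chromosome 13, did not follow its neighbour. It had 119 to 149 FPKM in Ctrl, 121 to 173 in PBS and 117 to 172 in FLX mice, with log2 fold changes of 0.25 (SE 0.11) in PBS versus Ctrl and -0.22 in FLX versus PBS, neither past the adjustment (adjusted p = 0.242 and 0.506). The imino acid carrier gene Slc6a20a and its relative Slc6a20b also lie side by side, on chromosome 9. They are near copies, so that reads may have been divided between them. Slc6a20b was at 27.0 ± 3.09 FPKM (SD, n = 6) in Ctrl and Slc6a20a at 5.86 ± 0.716 (SD, n = 6). Their log2 fold changes lay between -0.18 and 0.09 over the 3 comparisons. Slc1a1, the apical glutamate carrier, held 26.8 ± 3.72 FPKM (SD, n = 6) in Ctrl and had a log2 fold change of 0.03, 0.00 and 0.04 in PBS versus Ctrl, FLX versus PBS and FLX versus Ctrl. Over the 10 apical genes, 0 were called in PBS versus Ctrl, 1 was lower in FLX versus PBS (Slc6a19) and 2 were lower in FLX versus Ctrl (Slc6a19 and Slc7a9). Among all genes tested, 0.42% were called lower in FLX versus PBS and 1.59% in FLX versus Ctrl.

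At the basolateral membrane, Slc3a2 is the heavy chain of Slc7a7, which exports basic amino acids, and of Slc7a8, which exchanges neutral ones. None of the 4 genes of this group was called in any comparison by edgeR, and DESeq2 called none of them. At an unadjusted p under 0.05 there were 2 in PBS versus Ctrl, 1 in FLX versus PBS and 1 in FLX versus Ctrl. Of all genes, 9.18% were then higher and 8.76% lower in PBS versus Ctrl, and 5.76% and 5.38% in FLX versus PBS. In FLX versus Ctrl it was 10.2% in each direction. All 4 fitted values were above 0 in PBS versus Ctrl and below 0 in FLX versus PBS, with medians of 0.34 and -0.35. The PBS mice enter both comparisons, which favours opposite signs, and no share of all genes with this pattern is given. Slc3a2 was at 28.9 to 40.1 FPKM in Ctrl, 35.5 to 53.8 in PBS and 27.3 to 46.6 in FLX mice, with 0.33 (SE 0.14, adjusted p = 0.224) in PBS versus Ctrl. Slc7a7 was at 29.9 to 42.8 FPKM in Ctrl, 29.9 to 49.3 in PBS and 21.6 to 36.9 in FLX mice. Its log2 fold change was -0.47 (SE 0.15, adjusted p = 0.170) in FLX versus PBS and -0.39 (SE 0.14, adjusted p = 0.127) in FLX versus Ctrl. The FLX versus PBS value lay between -0.57 and -0.17 over the 30 alternatives. The deeper FLX libraries, replicates 1 and 2, had 31.2 and 36.9 FPKM of Slc7a7, and FLX replicates 3 to 6 had 21.6 to 28.2. The part of depth in this was not tested. Slc7a8 had 10.5 to 19.4 FPKM in Ctrl, 12.5 to 24.0 in PBS and 7.99 to 18.4 in FLX mice and a log2 fold change of -0.38 (SE 0.20) in FLX versus PBS.

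Of the Slc6 carriers of osmolytes, creatine and neurotransmitters, 9 of 14 were tested and none was called by edgeR. At an unadjusted p under 0.05 there were 1 in PBS versus Ctrl, 1 in FLX versus PBS and 0 in FLX versus Ctrl. The shares of all genes at that threshold are those given for the basolateral group. The GABA and taurine carrier Slc6a13 had 35.4 to 42.3 FPKM in Ctrl, 37.9 to 55.4 in PBS and 36.7 to 45.0 in FLX mice. Its log2 fold change in PBS versus Ctrl was 0.32 (SE 0.10, adjusted p = 0.0843), which passed the threshold with DESeq2 (adjusted p = 0.0380) and without PBS replicate 5 (0.40, adjusted p = 0.0165), and gave 0.25 (adjusted p = 0.230) with all 6 PBS mice. Its FLX versus PBS value was -0.28 (SE 0.10, adjusted p = 0.245). The creatine carrier Slc6a8 was steady, at 32.2 to 45.0 FPKM in the 17 mice. The taurine carrier Slc6a6 was at 37.0 FPKM in Ctrl replicate 3 and at most at 21.7 FPKM in the other Ctrl mice, against 23.8 to 30.3 in PBS mice. Its log2 fold change in PBS versus Ctrl was 0.32 (SE 0.17, adjusted p = 0.354), and without Ctrl replicate 3 it was 0.50 (SE 0.13, adjusted p = 0.0291).

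In the Slc38 family, 9 of 11 genes were tested. Slc38a3 encodes SNAT3, through which the proximal tubule takes up glutamine for ammonia production. It was at 8.67 to 12.3 FPKM in Ctrl mice, at 19.2, 10.5, 11.4, 13.9 and 15.4 FPKM in the PBS mice and at 5.39 to 15.5 FPKM in FLX mice. PBS replicates 1, 4 and 5 were above every Ctrl mouse, and FLX mice spread on either side of Ctrl. PBS versus Ctrl gave 0.46 (SE 0.21, adjusted p = 0.242) and FLX versus PBS -0.54 (SE 0.21, adjusted p = 0.289). Slc38a10 was the steadiest of the family, with means of 20.9 ± 0.546 FPKM in the 6 Ctrl mice, 20.6 ± 0.650 in the 5 PBS mice and 22.1 ± 1.24 in the 6 FLX mice (SD).

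Among exchangers typical of growing and stressed cells, Slc1a4, a carrier of serine, alanine and cysteine, came nearest to a call. It had 4.55 to 7.31 FPKM in Ctrl mice, 4.41, 4.35, 4.71, 5.14 and 3.73 FPKM in PBS mice and 4.39 to 6.11 FPKM in FLX mice. Only Ctrl replicate 6 had a level inside the PBS range. PBS versus Ctrl gave a log2 fold change of -0.43 (SE 0.12, adjusted p = 0.0591), and this passed the threshold in 7 of the 30 alternatives, among them DESeq2 (adjusted p = 0.0216), without Ctrl replicate 6 (0.0219), without Ctrl replicate 3 (0.0434) and without PBS replicate 4 (0.0440). With all 6 PBS mice it gave -0.62 (adjusted p = 0.145). Slc7a5, the large neutral amino acid carrier, was low, at 0.496 ± 0.138 FPKM (SD, n = 6) in Ctrl and 0.681 ± 0.0526 (SD, n = 5) in PBS mice, with 0.47 (SE 0.20, adjusted p = 0.213). Slc7a1, Slc7a2 and Slc7a4, grouped here as cationic carriers, and the glutamate carriers Slc1a2, Slc1a3 and Slc1a7 had Ctrl means below 1 FPKM. None was called. Slc36a4, at 0.936 to 1.57 FPKM in the 17 mice, and the opposite-strand transcript Slc7a6os, at 3.64 to 5.48 FPKM, were not called either.

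**Figure D3:**
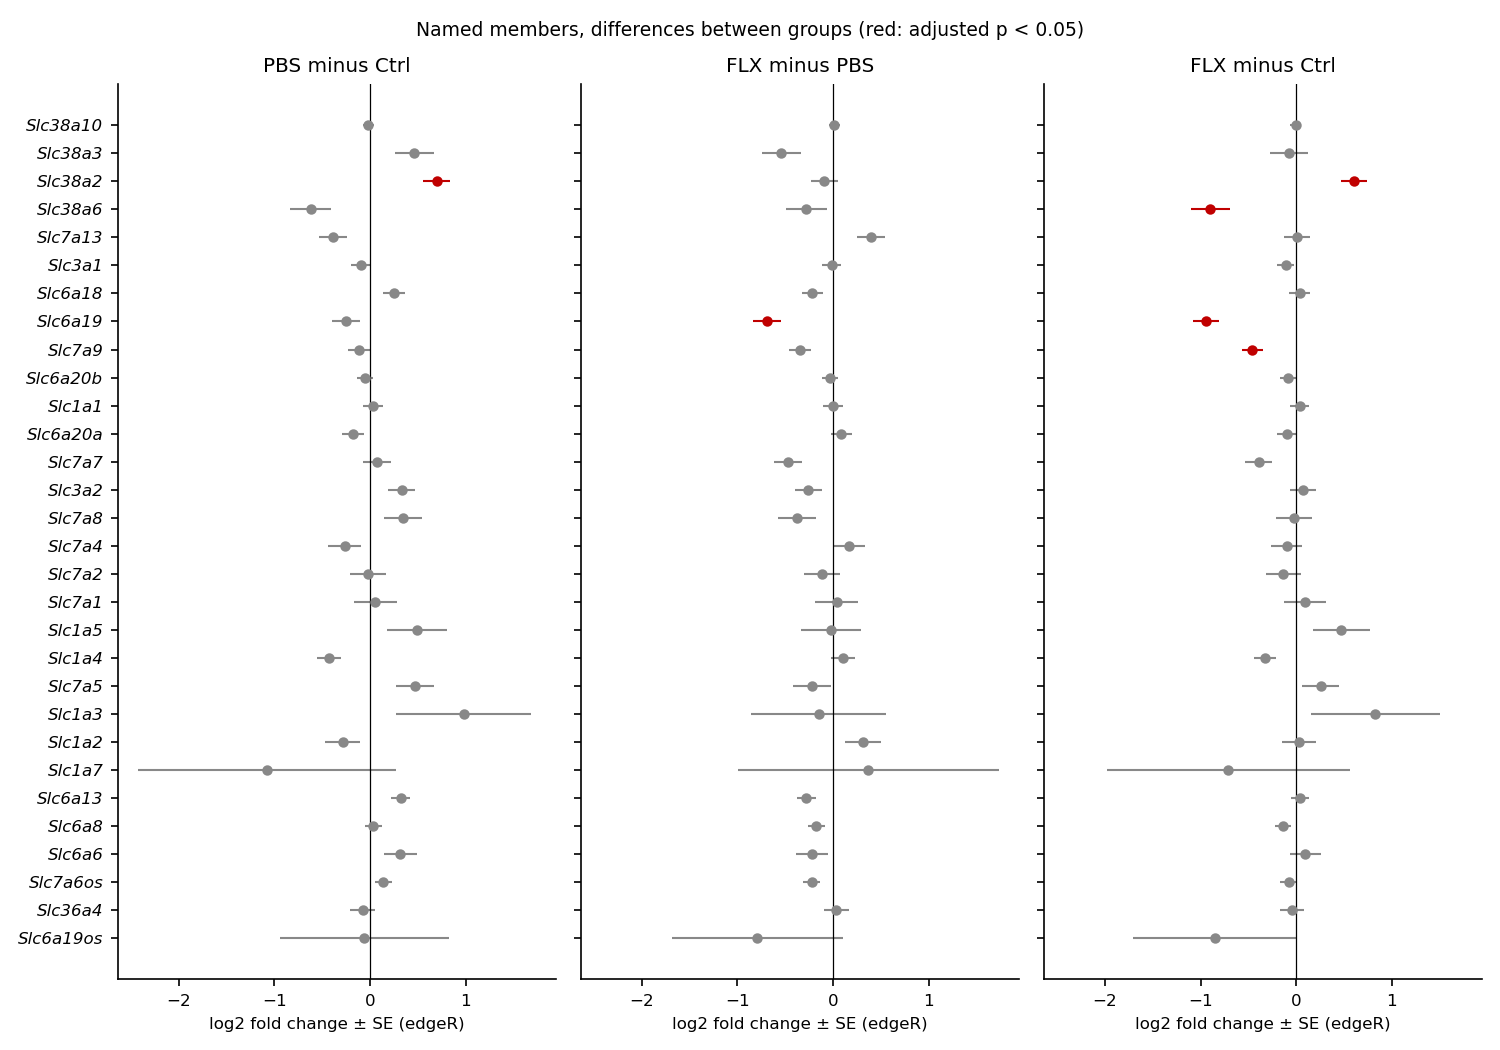
Log2 fold change with its SE from edgeR for the 30 named members in PBS minus Ctrl, FLX minus PBS and FLX minus Ctrl, grouped by role, with members at an adjusted p under 0.05 in red. The called values are 0.70 for Slc38a2, -0.69 for Slc6a19, and 0.60, -0.94, -0.46 and -0.90 for Slc38a2, Slc6a19, Slc7a9 and Slc38a6, and the wide bars belong to genes below 1 FPKM.

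PBS replicate 6, left out of the values above, differed from the other 17 mice in the carrier genes as well. Of the 47 tested members, 14 were below and 9 above each of the other 17 mice in it. These were 29.8% and 19.1% of the members, against 13.9% below and 15.3% above among all genes tested. Slc7a13 was at 6.44 FPKM, against 172 to 383 FPKM in the other mice, so that the median of the other 5 PBS mice was 32.7 times its level. Slc3a1 was at 105 FPKM against 191 to 264, Slc6a20b at 10.5 against 22.3 to 32.5, and Slc1a4 at 1.15 against 3.73 to 7.31. These were lower than in any other mouse. In contrast, Slc3a2 (74.8 FPKM against 27.3 to 53.8), Slc7a7 (56.5 against 21.6 to 49.3), Slc6a19 (73.4 against 25.4 to 71.0) and Slc36a4 (2.53 against 0.936 to 1.57) were higher than in any other mouse. Slc7a9, the other light chain of Slc3a1, was inside the range at 34.9 FPKM.

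The carriers thus did not move together in PBS replicate 6. The summed level of the 13 proximal tubule markers was 1349 FPKM in this mouse, and 11 of the 13 were below each of the other 17 mice, among them Lrp2, Aqp1, Cyp7b1 and Slc22a7. Slc5a2, a glucose carrier of the early proximal tubule, was at 149 FPKM against 80.2 to 156 in the others. The part of these markers in the carrier levels was not tested. With PBS replicate 6 included, Slc7a13 gave -0.64 in PBS versus Ctrl with an adjusted p of 0.462, and the called members in the 3 comparisons were the same.

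**Figure D4:**
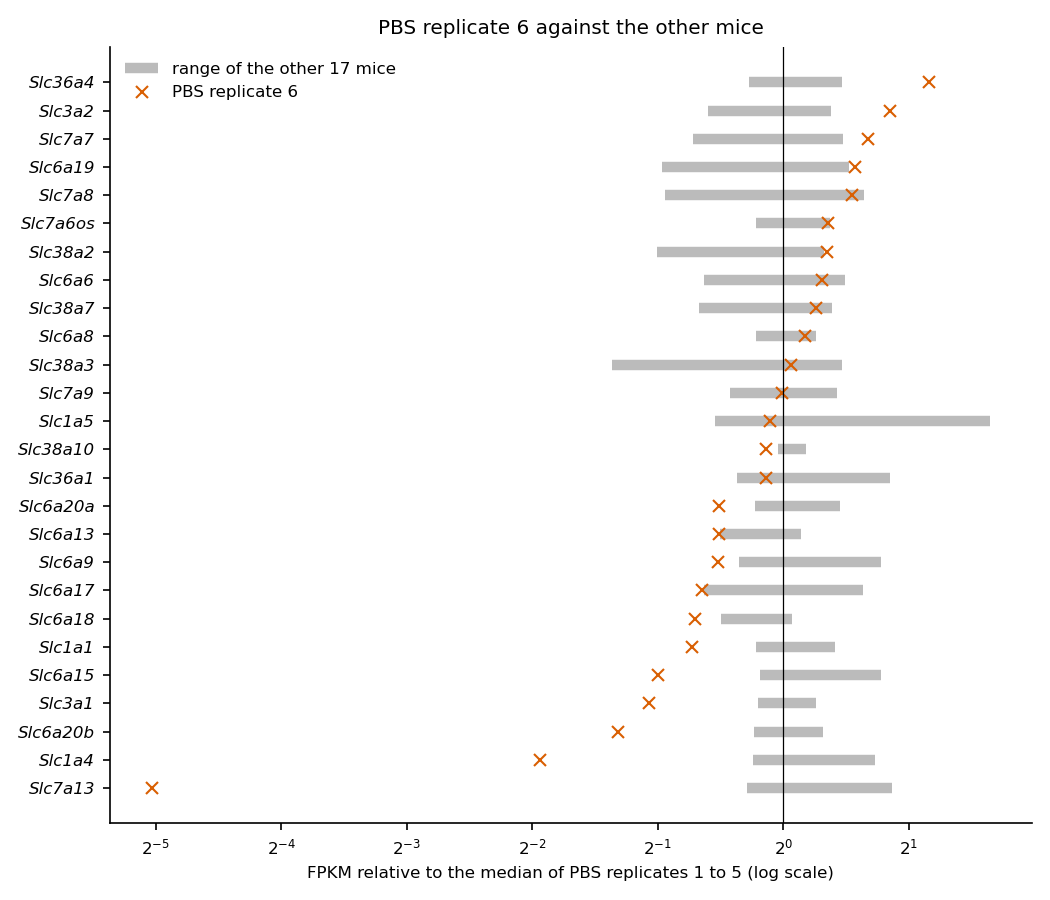
Level of the 26 members with a Ctrl mean above 1 FPKM in PBS replicate 6 (crosses) and the range of the other 17 mice (grey bars), each divided by the median of PBS replicates 1 to 5, on a log axis. Slc7a13 lies furthest below the other mice and Slc36a4 furthest above.

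Markers of other cell types were checked beside these results. Of the 13 proximal tubule markers, 2 were higher in PBS versus Ctrl (Miox, 0.46, and Gatm, 0.73), and neither with all 6 PBS mice (adjusted p = 0.575 and 0.198). None was called lower. The fitted values of the 13 ran from -1.12 to 0.73 in PBS versus Ctrl, with 7 above 0. Cyp7b1 was at 31.6 to 53.3 FPKM in PBS and 53.8 to 82.2 in Ctrl mice (-0.59, adjusted p = 0.165, edgeR). At an unadjusted p under 0.05 there were 4 in PBS versus Ctrl, 7 in FLX versus PBS and 0 in FLX versus Ctrl. The shares of all genes at that threshold are those given for the basolateral group. Of 4 neutrophil genes tested, 3 were higher in PBS versus Ctrl (4 with all 6 PBS mice, Retnlg being added at an adjusted p of 0.0401) and 1 lower in FLX versus PBS, and of 3 brown fat genes Elovl3 was higher in PBS versus Ctrl. Of 23 markers of the loop of Henle, distal tubule, collecting duct, podocytes, endothelium, macrophages, white fat, skeletal muscle, red cells and injured tubules, edgeR called 0 in each comparison, with 4, 5 and 3 at an unadjusted p under 0.05, and no adrenal gene was tested. With all 6 PBS mice, the injured tubule gene Lcn2 was called higher in PBS versus Ctrl (3.07, adjusted p = 0.0373, against 1.17, adjusted p = 0.192, without PBS replicate 6).

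For 5 members the highest levels were in the 2 mice with the highest levels of the adipocyte gene Adipoq. Slc36a2, a proton-coupled carrier that is also a marker of brown adipocytes, had 14.5 FPKM in PBS replicate 5 and 12.2 in FLX replicate 5, against 0 to 3.56 in the other 16 mice. The same 2 mice were the highest for Slc7a10, a serine and glycine carrier known from adipocytes (1.48 and 2.28 FPKM against 0 to 0.472), for the glutamate carrier Slc1a3 (1.52 and 1.70 against 0.0958 to 0.680) and for the glutamine carrier Slc1a5 (19.4 and 31.7 against 6.94 to 14.4). Adipoq, the adiponectin gene, was in these mice at 87.4 and 103 FPKM against 0.334 to 23.6. Both mice led for 5 of the 47 tested members (10.6%), against 3.02% of all genes tested. The fifth was Slc38a11 (0.172 and 0.102 FPKM against 0 to 0.0954), which was at 0 to 0.0631 FPKM in Ctrl and 0.0517 to 0.102 in FLX mice, with an exact permutation p of 0.00433 and an adjusted p of 0.223 (edgeR) in FLX versus Ctrl. These genes were singled out after their values were seen, and the part of adhering fat in their levels was not tested. None of the 5 was called over the 17 mice, with for example 2.78 (SE 1.24, adjusted p = 0.244) for Slc36a2 and 0.49 (adjusted p = 0.440) for Slc1a5 in PBS versus Ctrl.

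**Figure D5:**
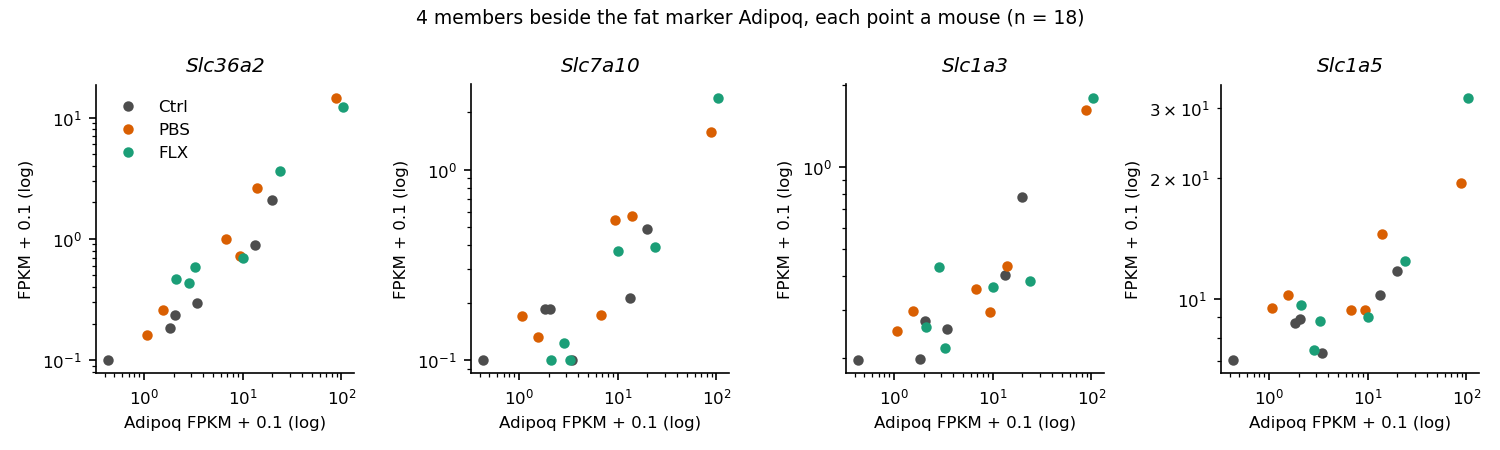
FPKM plus 0.1 of Slc36a2, Slc7a10, Slc1a3 and Slc1a5 against that of the adipocyte gene Adipoq on log axes, each point 1 of the 18 mice coloured by group. The mice furthest to the upper right in each panel are PBS replicate 5 and FLX replicate 5, and each group holds mice at low and higher Adipoq levels.

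Other genes of amino acid handling were taken from lists. Of 19 other amino acid and peptide carriers and their helpers, edgeR called 1 higher in FLX versus Ctrl, 0 in PBS versus Ctrl and 0 in FLX versus PBS, where 1 and 2 had an unadjusted p under 0.05. Cltrn, collectrin, which helps Slc6a19 to the membrane in the kidney and was singled out for that role, was at 774 to 908 FPKM in Ctrl, 722 to 1019 in PBS and 661 to 788 in FLX mice, and its log2 fold change in FLX versus Ctrl was -0.32 (SE 0.10, adjusted p = 0.0683). Slc43a3, a member of its family known to carry nucleobases, was called higher in FLX versus Ctrl (0.47, adjusted p = 0.0380), but not with all 6 PBS mice (adjusted p = 0.376).

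Of 12 genes of the amino acid response, 1 was higher in PBS versus Ctrl and 1 lower in FLX versus PBS. It was Cebpb in both, a transcription factor gene of inflammation as well, at 7.92 to 12.9 FPKM in Ctrl, 19.7 to 39.9 in PBS and 14.8 to 18.7 in FLX mice (1.34, adjusted p = 0.000143, and -0.86, adjusted p = 0.0157). Atf4, the central factor of that response, was at 27.6 to 35.0 FPKM in Ctrl and 30.2 to 47.9 in PBS mice (0.28, adjusted p = 0.227). FLX mice had 34.8 to 46.5 FPKM of Atf4, and edgeR gave 0.32 (adjusted p = 0.131) in FLX versus Ctrl. The exact permutation p, which carries the offset of FLX mice on the FPKM scale, was 0.00433. The Atf4 target Asns gave 0.37 (adjusted p = 0.682, edgeR) in PBS versus Ctrl, with an exact permutation p of 0.870. PBS replicate 5 had 4.50 FPKM of Asns, and the other PBS mice had 1.01 to 1.32 FPKM, below the Ctrl median of 1.40. Over the 12 genes, the fitted values in PBS versus Ctrl ran from -0.51 (Trib3) to 1.34 (Cebpb), with 8 above 0. Among 4 tonicity genes, the myo-inositol carrier Slc5a3 was higher in PBS versus Ctrl (0.95, SE 0.23, adjusted p = 0.0252), which did not hold with all 6 PBS mice (adjusted p = 0.0667).

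Of 5 genes of renal glutamine use, 2 were higher in PBS versus Ctrl and the same 2 were lower in FLX versus PBS. Pck1, which makes glucose from the carbon of glutamine, was at 267 to 413 FPKM in Ctrl, 502 to 827 in PBS and 254 to 500.2 in FLX mice (0.80, adjusted p = 0.00929, and -0.83, adjusted p = 0.0209). Glul, the glutamine synthetase gene, was at 70.5 to 92.1 FPKM in Ctrl, 136 to 213 in PBS and 93.1 to 162 in FLX mice (1.17, adjusted p = 0.000134, and -0.71, adjusted p = 0.0191). The rows left out of the families were Slc7a12 and Slc6a4, the target of fluoxetine, which stayed between 0.382 and 1.32 FPKM in the 17 mice. Slc7a12 was at 1.46 to 2.81 FPKM in Ctrl, 12.2 to 28.7 in PBS and 5.86 to 14.9 in FLX mice. PBS replicate 6, outside these ranges, had 0.708 FPKM of Slc7a12.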

How the data were processed

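Poly(A) RNA from the right kidneys of 18 mice was sequenced from either end of each fragment. The methods name fastp for trimming, HISAT-3N with GRCm38 for alignment and StringTie for quantification, and the submitters' processing notes also name HISAT2 2.0.4 and StringTie 1.3.4d. Per gene and mouse, the deposited table gives the authors' FPKM and an estimated count, with no statement of how the latter was made. The test had been planned for raw counts. The estimated counts are whole numbers and were used as they stand.

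Groups were taken from the sample labels. Counts were filtered with filterByExpr, scaled by TMM and fitted in 1 model over 17 mice with edgeR 4.0.16 (R 4.3.3), and its two-sided quasi-likelihood p-values were adjusted over 20251 genes. Single genes were also compared by an exact permutation test on log2(FPKM + 0.1). Alternatives used DESeq2 1.42.0, limma 3.58.1, other scaling and filters, a replicate block and omission of each mouse. The edgeR step was tested on simulated data. No pairing of mice by replicate number was apparent. Correlations of same-number deviations were -0.205 to 0.227 (median -0.0309, 16 pairs), against -0.214 to 0.165 (median -0.0036, 80 pairs) for other numbers. These correlations cannot exclude a pairing. No labelled batch was found. Mice are separate animals, and p-values measure the spread between them.

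The members, roles, marker lists and motifs were chosen with earlier results of these data known. Members named in the text were those at an adjusted p under 0.05, the 5 with the lowest p in each comparison, the 3 with the highest Ctrl level in each role and 12 renal carriers set by name. Slc36a2, Slc7a10 and Slc38a11 fall outside this rule and were named after their values were seen, as were the untested Slc6a2, Slc6a3 and Slc7a15. Promoter windows came from RefSeq (GRCm38.p6), which held 44 of the 59 members, and motifs were searched on either strand of the 250 bases before each start. A gene of the list of other amino acid carriers is not reported here and was left out of that list's counts.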

Additional observations from a re-analysis of the deposited data

Results flagged for a closer look

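In the 90 sets of a group and a member named by the rule above, 20 had a highest or lowest mouse far from the others by Dixon's test. The nominal rate of about 1 in 20 assumes independent and normally distributed values. The same mice recur over these sets and no share over all genes is given, so that no excess is claimed. In 6 of the 20 sets the mouse was PBS replicate 6, already left out above and tested here among all 6 PBS mice. It was far below the others for Slc7a13 (6.44 FPKM), Slc3a1 (105 FPKM), Slc6a20b (10.5 FPKM) and Slc1a4 (1.15 FPKM), and far above them for Slc7a5 (1.09 FPKM) and Slc36a4 (2.53 FPKM). Ctrl replicate 3 was far above the other Ctrl mice for Slc6a6 (37.0 FPKM), Slc1a1 (34.1 FPKM), Slc7a8 (19.4 FPKM) and Slc38a6 (1.19 FPKM).

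Slc1a3 was far above the rest of its group in Ctrl replicate 6 (0.680 FPKM), PBS replicate 5 (1.52 FPKM) and FLX replicate 5 (1.70 FPKM), the mouse of each group with the highest level of fat genes. FLX replicate 5 was also far above the other FLX mice for Slc1a5 (31.7 FPKM) and far below them for Slc6a13 (36.7 FPKM). FLX replicate 4 stood apart with high Slc7a1 (0.592 FPKM), high Slc1a7 (0.0742 FPKM) and low Slc6a8 (32.2 FPKM), and FLX replicate 6 with high Slc36a4 (1.57 FPKM) and high Slc1a2 (0.312 FPKM).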

How the results depend on the processing

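Results were recomputed under 30 alternatives for each comparison, and no direction reversed among the named results. The number of members called in PBS versus Ctrl, 1, became 2 with upper-quartile scaling, 2 with at least 100 counts in at least 5 mice, 3 with DESeq2 and 3 without the mouse highest in fat genes of each group, an alternative chosen after seeing the data. Leaving out each mouse in turn gave 1 to 3. The share of all genes called moved as well, from 2.14% higher and 1.67% lower in the main fit. It was 7.91% in either direction with DESeq2 and 8.27% without Ctrl replicate 3. These counts are therefore not read as a change particular to the members. In FLX versus PBS the 1 call became 0 with limma on log2(FPKM + 0.1), log2(FPKM + 1) and log2(FPKM + 0.01), 0 with FLX replicates 1 and 2 only, 0 without the mice highest in fat genes, and 0 to 1 when single mice were left out. In FLX versus Ctrl the 4 calls became 0 with FLX replicates 1 and 2 only, where far fewer mice remained, and 2 to 5 when single mice were left out. Of all genes, 15.4% were called in FLX versus Ctrl without Ctrl replicate 3, against 2.08% higher and 1.59% lower in the main fit. With the replicate block, 1, 0 and 2 members were called in PBS versus Ctrl, FLX versus PBS and FLX versus Ctrl. Since no pairing by number was apparent, this is given as a description. The cause of these changes was not tested apart from the smaller number of mice. Depth limits low members most in FLX replicates 3 to 6, whose totals were the lowest.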
